A study of Mus musculus with 24 samples.

Results

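The genes of the tricarboxylic acid (TCA) cycle and of pyruvate entry into it were followed in cultured mouse fat cell precursors in which the long non-coding RNA *H19* was knocked down. They were chosen by symbol, as 33 of the 49452 genes of the deposited table, and fall into 10 groups by the enzyme or transporter they encode. The precursors were stromal-vascular cells, which stay behind when lipid-filled adipocytes are taken out of the tissue, of interscapular brown adipose tissue (BAT) and of perigonadal visceral white adipose tissue (vWAT, labelled epididymal) of male C57BL/6 mice 6 to 8 weeks old, and BAT of several animals could be pooled. Cells received either a non-targeting control siRNA (siCtrl) or an siRNA against *H19* (siH19) by nucleofection, and RNA was taken before induction (d0) or on day 3 of differentiation (d3), which gave 8 groups of 3 libraries and 24 libraries in all. All groups grew in medium with high glucose and sodium pyruvate. The labels give an induction mixture of insulin, dexamethasone, rosiglitazone and IBMX for cells of both depots, with indomethacin and triiodothyronine for BAT cells, followed by rosiglitazone for vWAT or triiodothyronine for BAT cells. At d3, therefore, the depot and the medium cannot be told apart. Libraries of BAT and of vWAT cells also carry different name prefixes, at d0 as at d3. What the prefix stands for is not given, and it cannot be told apart from the depot. Both siRNAs were transient. No source says whether the 3 libraries of a group were separate cultures or animals, so that p-values measure only the spread between these libraries.

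The TCA cycle, in the mitochondrial matrix, oxidises the acetyl group of acetyl-CoA to carbon dioxide and passes the electrons to the respiratory chain. Pyruvate from glycolysis enters the matrix through the mitochondrial pyruvate carrier and becomes acetyl-CoA in the pyruvate dehydrogenase (PDH) complex, which PDH kinases switch off by phosphorylation and PDH phosphatases switch on again. Pyruvate carboxylase instead turns pyruvate into oxaloacetate, which refills the cycle and, in adipocytes, supports citrate export for fatty acid synthesis. Brown adipocytes are rich in mitochondria and burn fuel through this cycle to make heat. In fat cells of any kind PEP carboxykinase takes part in making glycerol phosphate for triglycerides from oxaloacetate.

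Promoters were examined because these genes moved together in most comparisons below. RefSeq windows from 250 bases before to 50 bases after the annotated start, on GRCm38.p6, were at hand for 30 of the 33 genes (39 windows, since some genes have several starts), and *Idh3a*, *Sdhc* and *Pdp1* had none. Letters were searched on both strands for AAGGTCA, the core bound by oestrogen-related receptors, TNACGTCA, a cAMP response element with 1 free base, and CCAAT, the box bound by NF-Y. The 4 windows printed here are the 2 that hold AAGGTCA and 2 of those that hold TNACGTCA, with the matches to the 3 motifs in capitals (as found on either strand) and every sequence written 5′ to 3′ on the strand of the gene.
*Ogdh*, chr11:6291920-6292219, plus strand: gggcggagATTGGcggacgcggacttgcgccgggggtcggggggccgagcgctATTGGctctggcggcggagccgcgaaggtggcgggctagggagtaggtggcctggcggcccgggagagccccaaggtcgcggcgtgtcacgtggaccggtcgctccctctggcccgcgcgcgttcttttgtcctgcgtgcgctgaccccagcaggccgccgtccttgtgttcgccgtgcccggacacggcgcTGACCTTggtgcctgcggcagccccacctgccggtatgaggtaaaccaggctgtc
*Sdhd*, chr9:50603800-50604099, minus strand: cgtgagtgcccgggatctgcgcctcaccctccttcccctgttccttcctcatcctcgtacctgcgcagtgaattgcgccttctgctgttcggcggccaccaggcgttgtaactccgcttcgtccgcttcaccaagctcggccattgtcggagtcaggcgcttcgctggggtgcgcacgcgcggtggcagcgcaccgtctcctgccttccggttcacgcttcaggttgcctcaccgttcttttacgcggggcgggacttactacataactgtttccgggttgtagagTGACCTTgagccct
*Mdh2*, chr5:135778399-135778698, plus strand: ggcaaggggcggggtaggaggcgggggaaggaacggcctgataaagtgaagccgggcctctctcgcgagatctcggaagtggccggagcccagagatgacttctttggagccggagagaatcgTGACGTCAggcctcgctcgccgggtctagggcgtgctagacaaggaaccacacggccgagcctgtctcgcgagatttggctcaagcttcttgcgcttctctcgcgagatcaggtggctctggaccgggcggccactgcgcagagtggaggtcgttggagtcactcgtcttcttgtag
*Pck1*, chr2:173152823-173153122, plus strand: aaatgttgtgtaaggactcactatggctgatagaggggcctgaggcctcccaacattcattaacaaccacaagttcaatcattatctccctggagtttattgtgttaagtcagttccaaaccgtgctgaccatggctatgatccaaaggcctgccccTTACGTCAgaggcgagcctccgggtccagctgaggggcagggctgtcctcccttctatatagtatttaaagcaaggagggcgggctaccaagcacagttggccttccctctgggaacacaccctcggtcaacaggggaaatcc
AAGGTCA lay in 2 of the 39 windows (5.13%), against 4.72% of 32851 promoters of all genes. TNACGTCA lay in 6 windows of 4 genes, *Ogdh*, *Mdh2*, *Pdhb* and *Pck1* (15.4% of windows, against 2.93% of all promoters), and several of the windows are overlapping *Ogdh* starts that share the same bases. CCAAT lay in 26 windows of 20 genes (66.7%, against 37.4%). These matches describe letters in the windows and are not evidence of binding. On GRCm38 the gene *Ogdh* spans chr11:6291633-6356642, *Sdhd* chr9:50596357-50603812, *Mdh2* chr5:135778480-135790398 and *Pck1* chr2:173153048-173159273. The starts used for the printed windows of *Ogdh*, *Mdh2* and *Pck1* therefore lie inside the genes as annotated there. The start used for *Sdhd* lies before the annotated gene.

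Replicate libraries correlated at a Pearson r of 0.988 to 0.991 across genes. Relative depth, read from the steps between low values, ranged from 0.826 to 1.168 of the median library and was lower in every BAT library (0.826 to 0.984) than in every vWAT library (1.016 to 1.168), and its part in differences between depots was not tested. *H19* was lower in siH19 than in siCtrl libraries in all 4 settings, with log2 fold changes of -2.64 (BAT d3), -2.68 (vWAT d3), -4.63 (BAT d0) and -2.56 (vWAT d0), and limma adjusted p-values of 0.00132, 0.00965, 0.00225 and 0.0046. The labelled cells showed adipocyte markers (7 genes, such as *Adipoq* and *Plin1*) at every day, with summed FPKM of 3135 to 3408 at d0 and 37576 to 39282 at d3 in BAT siCtrl cells. The summed brown adipocyte markers reached 517 to 613 in BAT siCtrl cells at d3 and 129 to 150.1 in vWAT siCtrl cells, where *Ucp1* was listed at 0. *Myod1* and other skeletal muscle markers summed to 16.7 to 22.7 FPKM in BAT siCtrl cells at d3 and to at most 0.014 in vWAT siCtrl cells, and 4 of 4 mesothelial markers were higher in vWAT than in BAT siCtrl cells at d0. In bulk RNA, fewer cells of a type and less RNA of a gene per cell cannot be told apart.

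FPKM values, which correct fragment numbers for transcript length and library size, allow levels to be compared between genes. In BAT siCtrl cells at d3 the 33 genes summed to 14224 ± 470 FPKM (mean ± SD of 3 libraries, as for each ± beside an FPKM value below), or 1.74% of all FPKM, against 2170 ± 38.5 FPKM (0.303%) at d0. In vWAT siCtrl cells the sum was 2513 ± 49.3 FPKM (0.335%) at d0 and 6856 ± 169 FPKM (0.836%) at d3. The highest levels at d3 in BAT siCtrl cells were those of *Mdh1*, the cytosolic malate dehydrogenase of the malate-aspartate shuttle, at 1322 ± 35.2 FPKM, *Sdha*, the flavoprotein of succinate dehydrogenase, at 1288 ± 58.6, and *Mdh2*, the malate dehydrogenase of the cycle itself, at 1204 ± 66.4, and the order of *Mdh1* and *Sdha* did not exceed their spread. The lowest were the PDH phosphatases *Pdp1* (3.16 ± 0.379) and *Pdp2* (7.80 ± 0.656) and the kinase *Pdk1* (12.8 ± 4.69). Apart from *Idh2* and *Suclg2*, every enzyme of the cycle lay above every kinase and phosphatase of PDH. Of all values of these genes 1 was listed at 0, that of *Pck1* in a vWAT siCtrl library at d0.

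**Figure D1:**
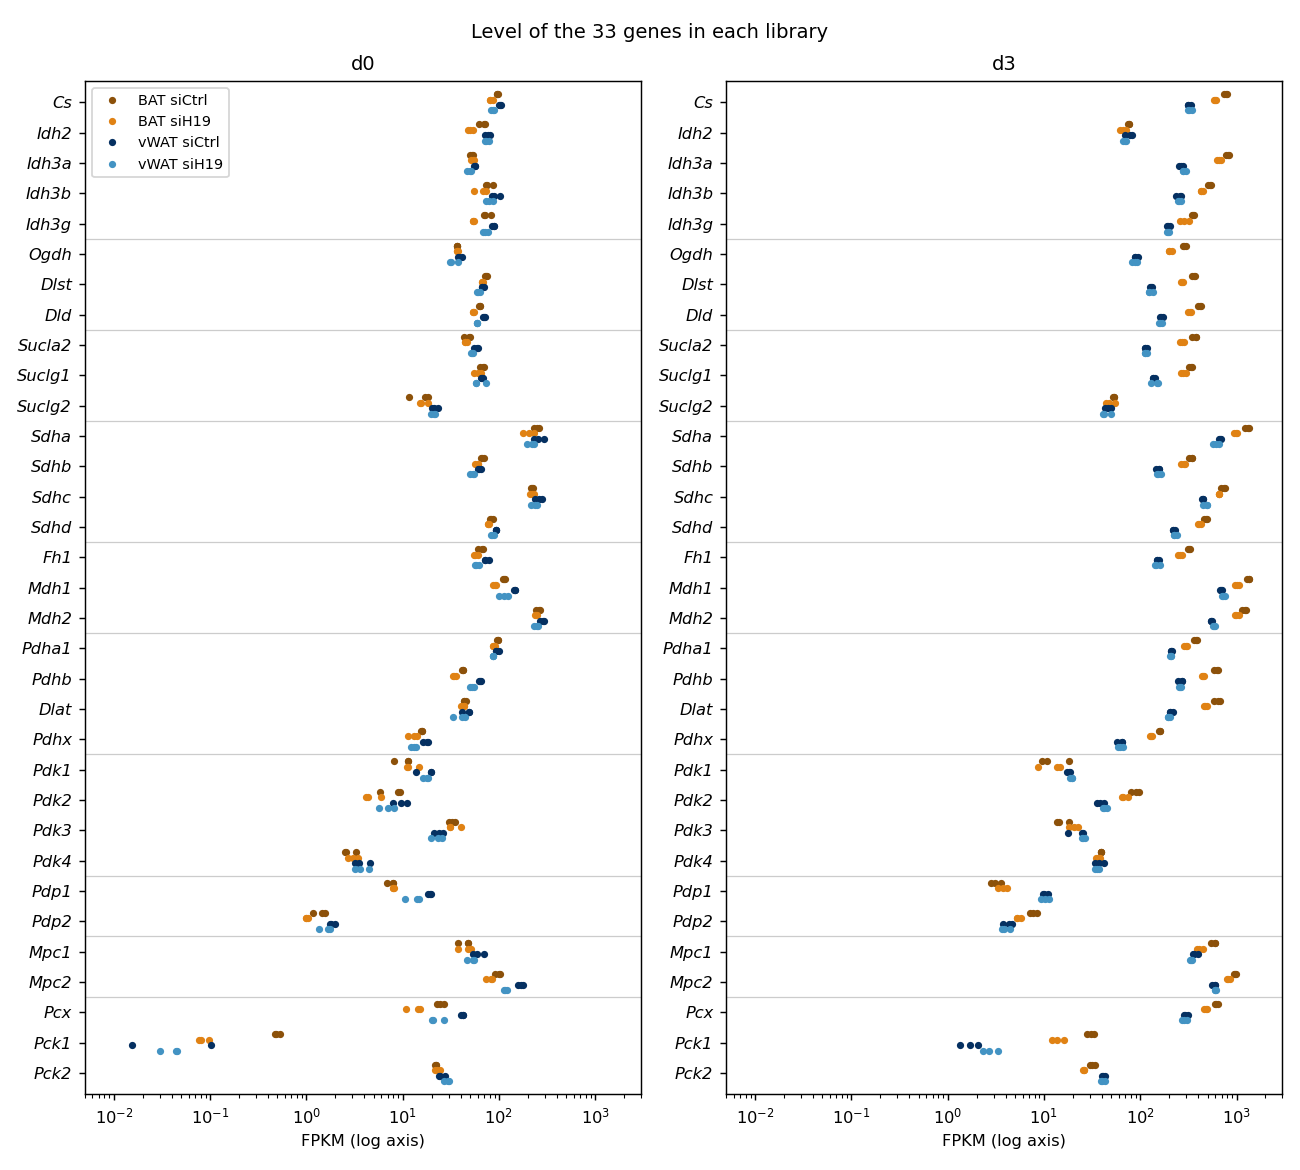
FPKM (log axis) of each gene at d0 (left) and d3 (right), with 1 point per library coloured by depot and siRNA, and genes ordered by enzyme. Most genes sit higher at d3 than at d0 and highest in BAT siCtrl cells at d3, while *Pdk3* and *Pdp1* do not. By group mean *Idh2*, *Pdk1* and *Pck2* are highest in vWAT cells at d3. The single value of 0 of *Pck1* is not drawn.

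The comparison of d3 with d0 in siCtrl cells asked how these genes move as precursors differentiate. In BAT cells 29 of the 33 rose and 2 fell, and in vWAT cells 29 rose and 1 fell. A gene passed at a limma adjusted p under 0.05 over all tested genes and a change of at least 1.3-fold on the log2(FPKM + 1) scale, which understates changes of low genes. Of all tested genes 29.9% rose and 35.3% fell in BAT cells, and 26.3% rose and 23.9% fell in vWAT cells. The median log2 fold change of the 33 genes was 2.52 in BAT cells and 1.22 in vWAT cells, against -0.10 and 0.01 over all genes. Markers moved over the same days. In BAT siCtrl cells 7 of 7 adipocyte and 5 of 6 brown markers rose, and 5 of 5 precursor, 3 of 4 macrophage, 2 of 3 endothelial and 3 of 4 muscle markers fell. In vWAT siCtrl cells 7 of 7 adipocyte and 3 of 3 tested brown markers rose, and 3 of 5 precursor, 3 of 5 macrophage and 3 of 4 mesothelial markers fell, while 1 precursor and 1 macrophage marker rose. Their part in these changes was not tested.

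On the log2(FPKM + 1) scale the largest rise in BAT siCtrl cells was that of *Pcx*, pyruvate carboxylase, while by the ratio of mean FPKM *Pck1* rose more (61.3-fold, from a low level, against 25-fold). Its level was 24.4, 22.9 and 26.8 FPKM in the 3 d0 libraries and 613, 637 and 602 in the d3 libraries, a log2 fold change of 4.59 ± 0.061 (SE, adjusted p from limma 1.73e-08). In vWAT cells *Pcx* went from 41.9, 40.5 and 42.4 to 312, 289 and 287 FPKM, a log2 fold change of 2.80 ± 0.046 (limma adjusted p 1.08e-07). Days did not overlap for *Pcx* in either depot. *Pck1*, the cytosolic PEP carboxykinase, rose in BAT cells from 0.485, 0.478 and 0.536 to 27.9, 30.7 and 33.2 FPKM (log2 fold change 4.40 ± 0.085, limma adjusted p 6.11e-08). In vWAT cells it rose from 0, 0.0153 and 0.101 to only 1.69, 2.07 and 1.36 FPKM (log2 fold change 1.38 ± 0.12, limma adjusted p 8.29e-05). The mitochondrial isoform *Pck2* rose less, from 21.9 ± 0.225 to 32.0 ± 1.67 FPKM in BAT cells and from 25.2 ± 1.96 to 41.7 ± 1.23 in vWAT cells.

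*Idh3a*, the catalytic subunit of the NAD-dependent isocitrate dehydrogenase, came next after *Pcx* and *Pck1* in BAT cells and rose from 52.4, 50.5 and 53.6 to 778, 838 and 822 FPKM (log2 fold change 3.94 ± 0.043, limma adjusted p 1.10e-08). In vWAT cells it rose from 56.3, 55.4 and 56.0 to 277, 267 and 253 FPKM (log2 fold change 2.23 ± 0.043). Its partner subunits *Idh3b* and *Idh3g* rose by 2.74 and 2.23 on the log2 scale in BAT cells, less than *Idh3a*, a difference that was not tested. *Idh2*, the NADP-dependent enzyme that catalyses the same step, did not pass in either depot. In BAT cells it was higher in every d3 library at a limma adjusted p under 0.05, but by less than 1.3-fold (log2 fold change 0.16). Its level was 72.0, 61.8 and 70.2 FPKM at d0 and 76.4, 75.4 and 76.3 at d3 in BAT cells, and 76.8 ± 4.18 and 77.0 ± 6.44 FPKM in vWAT cells (log2 fold change 0.00, 95% interval -0.17 to 0.18). The remaining enzymes from citrate synthase to malate dehydrogenase all rose in both depots, with log2 fold changes of 1.72 (*Sdhc*) to 3.55 (*Mdh1*) in BAT cells and 0.79 (*Sdhc*) to 2.23 (*Mdh1*) in vWAT cells.

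All 4 genes of the PDH complex and both carrier genes rose in both depots. The changes of the PDH complex ran from 1.95 (*Pdha1*, the subunit that the kinases phosphorylate) to 3.85 (*Pdhb*) in BAT cells. *Mpc1*, which forms the pyruvate carrier with *Mpc2*, rose in vWAT cells from 54.0, 59.8 and 70.1 to 366, 397 and 351 FPKM (log2 fold change 2.59 ± 0.098, limma adjusted p 2.09e-06). Among the kinases the isoforms split. *Pdk4*, an isoform known to be induced by fasting and by fatty acids, had the largest rise of the 33 genes in vWAT cells on the log2(FPKM + 1) scale, which compresses the rise of the lower *Pck1*, from 3.18, 4.54 and 3.5 to 41.7, 37.0 and 34.3 FPKM (log2 fold change 3.03 ± 0.12, limma adjusted p 2.90e-06). It rose to a like level in BAT cells, from 2.50, 2.57 and 3.30 to 39.5, 39.3 and 38.8 FPKM. *Pdk2* rose as well, by 3.35 in BAT and 1.92 in vWAT cells on the log2 scale. *Pdk3* fell in BAT cells, from 35.3, 32.4 and 30.3 to 14.3, 13.7 and 18.4 FPKM (log2 fold change -1.04 ± 0.12, limma adjusted p 0.000197), and did not pass in vWAT cells. *Pdk1* passed in neither. The phosphatases split too. *Pdp1* fell from 6.82, 7.96 and 7.99 to 3.09, 3.57 and 2.83 FPKM in BAT cells (limma adjusted p 8.77e-05) and from 18.4, 19.3 and 19.6 to 11, 10.1 and 9.81 in vWAT cells (limma adjusted p 4.46e-05), while *Pdp2* rose in both.

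**Figure D2:**
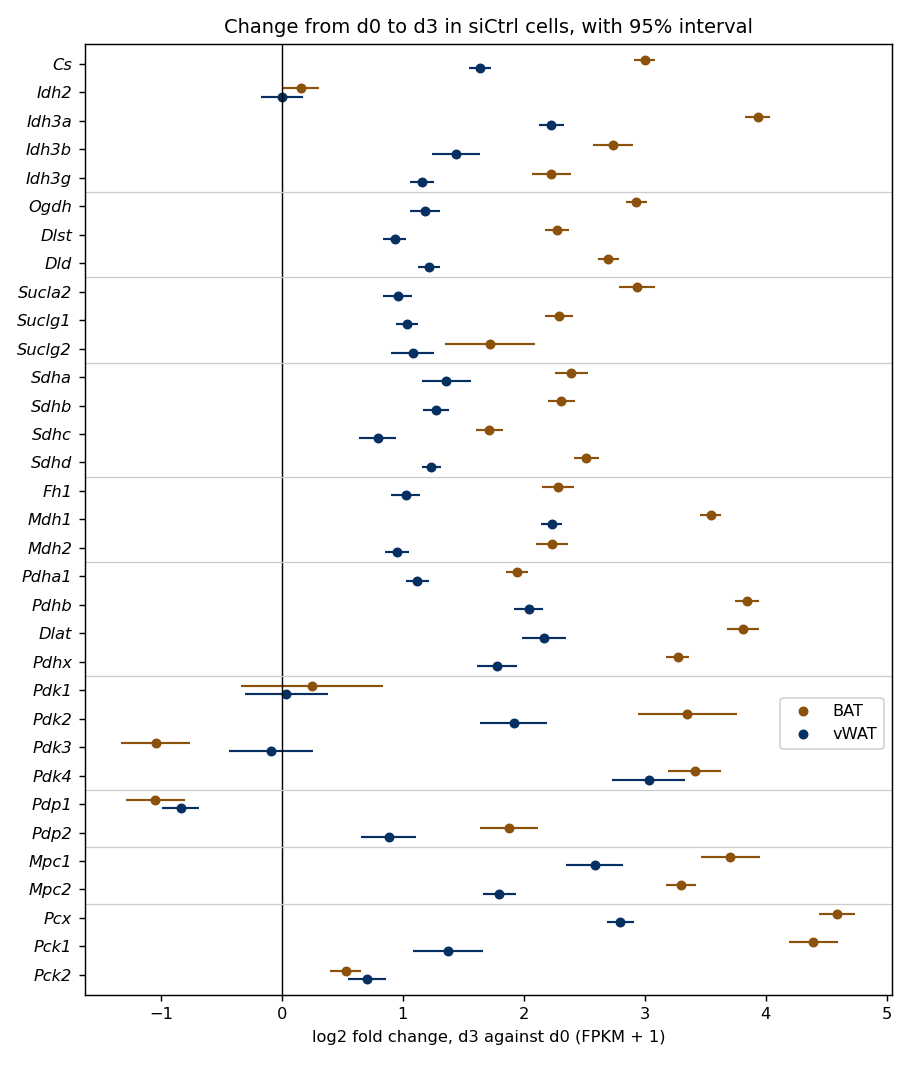
Log2 fold change of each gene from d0 to d3 in siCtrl cells of BAT and vWAT, with 95% intervals. *Pdk3* and *Pdp1* are the BAT points below 0, and the BAT points of most other genes lie to the right of those of vWAT.

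The isoform make-up shifted with these changes. *Pdk3* made up 60.7 ± 4.38% of the summed FPKM of the 4 PDH kinases in BAT siCtrl cells at d0 and 9.82 ± 1.33% at d3, while *Pdk2* went from 14.9 ± 3.32% to 57.1 ± 3.14% (mean ± SD of 3 libraries, no test). In vWAT siCtrl cells at d3 *Pdk2* (33 ± 1.06%) and *Pdk4* (32.2 ± 3.06%) held like shares. Among the phosphatases, *Pdp1* went from 84.5 ± 0.801% to 28.8 ± 1.81% in BAT cells and from 91.2 ± 0.344% to 70.8 ± 2.78% in vWAT cells, so at d3 *Pdp2* was the more abundant isoform in BAT cells and *Pdp1* in vWAT cells. *Sucla2*, the ATP-forming beta subunit of succinyl-CoA ligase, made up 75.2 ± 5.13% of the beta subunits in BAT cells at d0 and 87.4 ± 0.431% at d3, and 73.1 ± 2.48% and 71.1 ± 1.95% in vWAT cells. *Pck1* went from 2.23 ± 0.162% of the PEP carboxykinase sum to 48.8 ± 0.915% in BAT cells and reached 3.93 ± 0.723% in vWAT cells.

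Depots were compared in siCtrl cells at each day. At d0, 1 of 32 tested genes was higher in BAT than in vWAT cells and 7 were lower, against 10.2% and 21% of all tested genes. These shares lie near or below those of all genes. By the adjusted p alone 16 of 32 differed. The share of all genes by that rule was not counted, and 7290 of all 13139 tested genes had an unadjusted limma p under 0.05. The 16 are therefore not read as a difference particular to these genes. *Pck1* was too low to be tested. The lower genes were *Mdh1*, *Pdhb*, *Pdk1*, *Pdp1*, *Mpc1*, *Mpc2* and *Pcx*, and the higher one was *Pdk3*. *Pdp1* differed most, at 6.82, 7.96 and 7.99 FPKM in BAT and 18.4, 19.3 and 19.6 in vWAT cells (log2 fold change -1.23 ± 0.075, limma adjusted p 3.74e-05). The next was *Mpc2*, at 99.9, 90.7 and 102 against 157, 169.6 and 179 FPKM (log2 fold change -0.78 ± 0.066, limma adjusted p 0.000142). *Pcx* followed, with the d0 values given above (log2 fold change -0.73 ± 0.065, limma adjusted p 0.000183). The 3 genes did not overlap between depots. Without vWAT siCtrl d0 replicate 2, 4 of the 8 calls were made. The median over all tested genes lay at -0.13 at d0 and -0.16 at d3, and scaling each library to remove it moved all calls from 1343 higher and 2753 lower to 1866 and 1917 at d0, and from 2162 and 4216 to 3005 and 3185 at d3.

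At d3, 26 genes were higher in BAT than in vWAT cells and 2, *Pdk3* and *Pdp1*, were lower, against 16.5% and 32.1% of all tested genes. The *Pdk3* libraries overlapped between depots, at 13.7 to 18.4 FPKM in BAT and 17.8 to 25.2 in vWAT cells. *Idh2*, *Suclg2*, *Pdk1*, *Pdk4* and *Pck2* did not pass. Of these, *Pck2* was lower (log2 fold change -0.37) and *Suclg2* higher (0.2) in every BAT library. Both had a limma adjusted p under 0.05 but did not reach 1.3-fold. After the scaling 26 were higher and 1 lower. *Pck1* differed most (log2 fold change 3.55 ± 0.12, limma adjusted p 1.48e-06, values above). *Sucla2* was at 348, 378 and 382 FPKM in BAT and 117, 113 and 111 in vWAT cells (log2 fold change 1.69 ± 0.046, limma adjusted p 7.87e-07). *Ogdh*, the first subunit of the oxoglutarate dehydrogenase complex, was at 286, 296 and 280.3 against 94.3, 88.0 and 87.6 FPKM (log2 fold change 1.66 ± 0.043, limma adjusted p 6.34e-07). The genes of the pyruvate carrier differed less, by 0.65 (*Mpc1*) and 0.72 (*Mpc2*). At d3, 7 of 7 adipocyte markers and 6 of 6 brown markers were also higher in BAT cells, as were 3 of 3 tested muscle markers, and 4 of 5 precursor, 4 of 4 tested macrophage (10.3 to 10.5 against 41.5 to 42.0 FPKM, summed over the list), 2 of 2 tested endothelial and 3 of 4 mesothelial markers were lower, and their part in the difference was not tested.

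Whether the change with time differed between depots was tested by the interaction of depot and day, over the 12 siCtrl libraries. The rise was larger in BAT cells for 27 genes, and the change of *Pdk3* was lower in BAT cells, against 24.9% and 28.1% of all tested genes (called at an adjusted p under 0.05 with no minimum fold). The largest differences in log2 fold change between depots were those of *Pck1* (3.02 ± 0.15, limma adjusted p 4.25e-08), *Sucla2* (1.98 ± 0.082) and *Pdhb* (1.81 ± 0.064). For *Idh2*, *Pdk1*, *Pdk4*, *Pdp1* and *Pck2* the difference did not pass, with a 95% interval of 0.02 to 0.74 for *Pdk4*. After scaling to a common median, all calls were 4187 higher and 3371 lower (3514 and 3959 as deposited), and 29 of the 33 genes were higher and 1 lower.

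The comparison of siH19 with siCtrl cells asked what the loss of *H19* does to these genes, first in BAT cells at d3. Of the 33 genes 12 fell and 0 rose, against 2.18% of all 12500 tested genes that fell and 6.39% that rose. By the adjusted p alone 26 fell (5.61% of all genes). In 29 of the 33 the 3 siH19 libraries all lay below the 3 siCtrl libraries, which held for 13.1% of all genes. The median log2 fold change was -0.30, with 31 of 33 below 0, against a median of 0.05 over all genes. Summed FPKM of the 33 genes was 11309 ± 328 in siH19 cells, 1.39% of all FPKM, against 14224 ± 470 (1.74%) in siCtrl cells. Scaled to a common median, 15 of the genes fell and 0 rose, and all calls were 616 higher and 431 lower in place of 799 and 272. The count rests in part on single libraries, with 6 of the 33 called without BAT siCtrl d3 replicate 2 and 7 without BAT siH19 d3 replicate 1. Without either library *Cs*, *Dlst*, *Mdh1* and *Dlat* fell short of 1.3-fold, with a limma adjusted p still under 0.05. The same held for *Mdh1* without BAT siCtrl d3 replicate 3 and for *Sdha* without BAT siH19 d3 replicate 3. The summed brown markers were 312 to 348 FPKM in siH19 and 517 to 613 in siCtrl cells (5 of 6 genes fell), those of precursors 495 to 527 and 277 to 316 (3 of 4 tested rose), macrophage markers 6.69 to 7.68 and 10.3 to 10.5 (1 of 3 fell), muscle markers 23.4 to 26.6 and 16.7 to 22.7, and adipocyte markers 34248 to 36568 and 37576 to 39282 (0 of 7 passed). Their part in the fall of these genes was not tested.

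In the values below the siCtrl libraries come first and the siH19 libraries second, and values in parentheses are log2 fold changes ± SE. At the entry of the cycle, citrate synthase (*Cs*) was at 747, 799 and 777 FPKM in siCtrl and 582, 606 and 591 in siH19 libraries, a log2 fold change of -0.38 ± 0.037 (SE, limma adjusted p 0.00287). The isocitrate dehydrogenase subunit *Idh3a* was at 778, 838 and 822 against 624, 664 and 690.1 FPKM (log2 fold change -0.30 ± 0.049), and *Idh3b* at 502, 534 and 540.1 against 431, 427 and 452 (-0.27 ± 0.042). Both were below siCtrl in every library and passed the adjusted p (0.0104 and 0.0099, limma) but not 1.3-fold. All 3 genes of the oxoglutarate dehydrogenase complex, which turns oxoglutarate into succinyl-CoA, were lower. *Ogdh* fell from 286, 296 and 280.3 to 211, 199.6 and 197 FPKM (-0.50 ± 0.042, limma adjusted p 0.00197). *Dlst*, its transferase subunit, fell from 345, 369.7 and 358 to 267, 273 and 281 FPKM (-0.39 ± 0.04, limma adjusted p 0.00305). *Dld*, the dehydrogenase subunit that this complex shares with PDH, missed 1.3-fold at 403, 427 and 421 against 312, 326 and 340.3 FPKM (-0.35 ± 0.044, limma adjusted p 0.00517).

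Of succinyl-CoA ligase, *Sucla2* fell from 348, 378 and 382 to 261, 275 and 283 FPKM (-0.43 ± 0.051, limma adjusted p 0.00426), whereas the alpha subunit *Suclg1* and the GTP-forming beta subunit *Suclg2* did not pass (-0.23 and -0.13). Of succinate dehydrogenase, which is also complex II of the respiratory chain, *Sdha* fell from 1304, 1337 and 1223 to 977, 1006 and 932 FPKM (-0.41 ± 0.047, limma adjusted p 0.00392). The other subunits were lower in every siH19 library by less than 1.3-fold. *Sdhb*, the iron-sulphur subunit, was at 319, 347 and 341 against 268, 285 and 294 FPKM, and the membrane anchors *Sdhc* and *Sdhd* at 688, 734 and 765 against 658, 651 and 657 and at 464, 495 and 482 against 394, 409.9 and 430.1. *Fh1*, fumarase, was at 312, 330.0 and 322 against 249, 261 and 271 FPKM (-0.30 ± 0.044) and did not reach 1.3-fold. *Mdh1* fell from 1282, 1341 and 1344 to 963, 1002 and 1072 FPKM (-0.39 ± 0.047, limma adjusted p 0.00464). *Mdh2* was at 1128, 1231 and 1252 against 998, 968 and 1061 FPKM (-0.25 ± 0.054), lower in every library but by less than 1.3-fold.

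All genes of the PDH complex were below siCtrl in every siH19 library, and 2 of 4 passed. *Pdhb* fell from 584, 635 and 629 to 439, 448 and 463 FPKM (-0.45 ± 0.044, limma adjusted p 0.00289). *Dlat*, the acetyltransferase core, fell from 585, 672 and 636 to 463, 474 and 498 FPKM (-0.40 ± 0.058, limma adjusted p 0.00733). *Pdha1* (362, 388 and 376 against 287, 298 and 307 FPKM) and *Pdhx*, the binding protein for *Dld* (157, 161 and 162 against 126, 129 and 132 FPKM), did not reach 1.3-fold. Of the pyruvate carrier, *Mpc1* fell from 546, 603 and 600.4 to 389.9, 404 and 453 FPKM (-0.49 ± 0.068, limma adjusted p 0.00625). *Mpc2* was at 939.8, 996 and 969 against 794, 818 and 852 FPKM (-0.24 ± 0.04), lower in every library but by less than 1.3-fold.

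Of the enzymes that regulate PDH, *Pdk2* fell from 81.2, 98.2 and 90.6 to 64.2, 66.8 and 75.0 FPKM (-0.38 ± 0.087, limma adjusted p 0.0305). This call was lost without a filter on low values (limma adjusted p 0.0767) and in a single fit over all libraries (0.0726), and without any 1 of BAT siH19 d3 replicates 1 and 2 and BAT siCtrl d3 replicates 2 and 3 (0.0845 to 0.0914). The phosphatase *Pdp2* fell from 7.18, 8.48 and 7.73 to 5.29, 5.78 and 5.27 FPKM (-0.45 ± 0.086, limma adjusted p 0.0182). Its call was lost without any 1 of BAT siH19 d3 replicates 1 and 3 and BAT siCtrl d3 replicates 2 and 3 (limma adjusted p 0.0527 to 0.0679). The 2 genes above 0 were *Pdk3*, at 14.3, 13.7 and 18.4 FPKM in siCtrl and 20.4, 18.0 and 22.4 in siH19 libraries (0.38 ± 0.13, limma adjusted p 0.1), and *Pdp1*, at 3.09, 3.57 and 2.83 against 4.15, 3.37 and 3.74 (0.19 ± 0.11, limma adjusted p 0.285). Neither passed, and libraries overlapped. *Pdk1* was too variable to judge, with a 95% interval of -0.69 to 0.63, and *Pdk4* did not pass (-0.10, 95% interval -0.23 to 0.03). The share of *Pdk2* among the kinases was 49.8 ± 1.56% in siH19 and 57.1 ± 3.14% in siCtrl cells, and that of *Pdp1* among the phosphatases 40.8 ± 3.62% and 28.8 ± 1.81%, without overlap between libraries and with no test.

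The largest fall was that of *Pck1*, from 27.9, 30.7 and 33.2 to 12, 16.4 and 13.5 FPKM (-1.09 ± 0.12, limma adjusted p 0.0035). Its share of the PEP carboxykinase sum was 34.8 ± 3.48% in siH19 and 48.8 ± 0.915% in siCtrl cells. *Pcx* was lower in every library, at 613, 637 and 602 against 488, 477 and 459 FPKM (-0.38 ± 0.039, limma adjusted p 0.00305), and fell just short of 1.3-fold. *Pck2* was at 30.4, 32.0 and 33.8 against 26.3, 26.3 and 25.6 FPKM (-0.29 ± 0.056, limma adjusted p 0.0182) and did not reach 1.3-fold either.

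**Figure D3:**
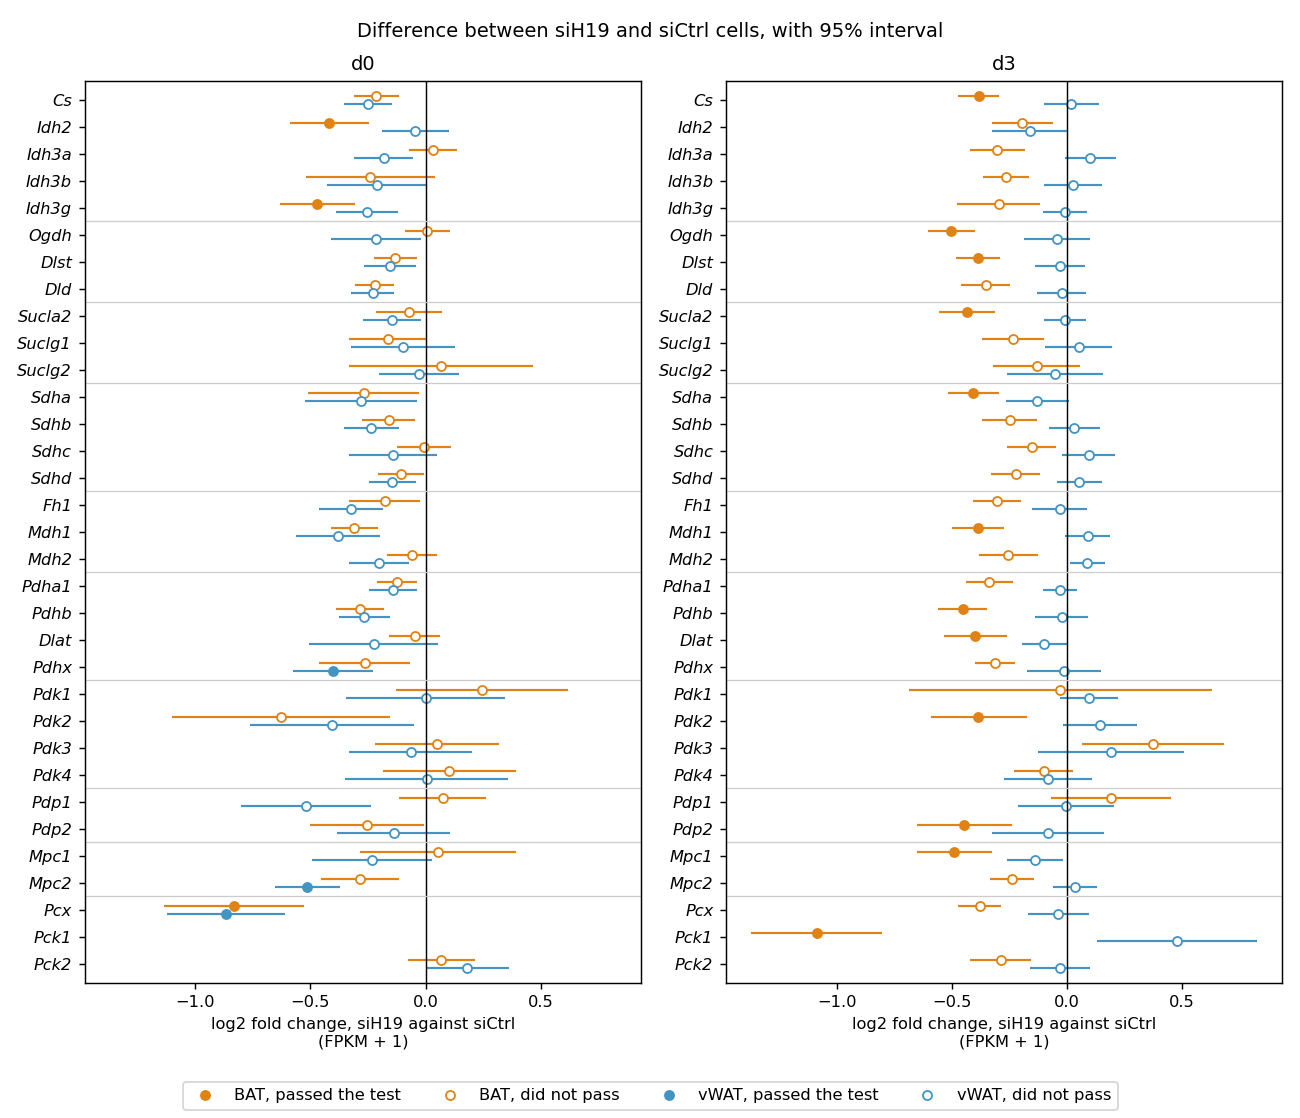
Log2 fold change of siH19 against siCtrl cells for each gene at d0 (left) and d3 (right), with 95% intervals, in BAT and vWAT, and filled points for genes that passed. At d3 the BAT points lie below 0 except for *Pdk3* and *Pdp1*, and the vWAT points lie around 0 apart from *Pck1*. *Pck1* was not tested at d0.

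In vWAT cells at d3 the same comparison gave 0 calls among the 33 genes. limma called 0.00764% of all 13097 tested genes higher and 0.0229% lower, and 1315 of them had an unadjusted p under 0.05. The median log2 fold change of the 33 genes was -0.01, with 19 of them below 0. All siH19 libraries lay below all siCtrl libraries for 2 genes, *Dlat* and *Mpc1* (8.57% of all genes), and above them for 5, *Idh3a*, *Mdh1*, *Mdh2*, *Pdk1* and *Pck1* (7.67%). The 95% interval lay within 1.3-fold either way for 31 of the 33, and the exceptions were *Pdk3* (-0.13 to 0.51) and *Pck1* (0.13 to 0.83). *H19* was reduced in these libraries from 8.59 to 0.528 FPKM, from a level far below that of BAT siCtrl cells (89.8 FPKM). Summed adipocyte markers were 21209 to 22386 FPKM in siH19 and 19221 to 20208 in siCtrl cells (0 of 7 passed).

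Whether the effect of siH19 at d3 differed between depots was tested by the interaction of depot and siRNA over the 12 d3 libraries. For 23 of the 33 genes the log2 fold change was lower in BAT than in vWAT cells, and for 0 it was higher, against 3.52% and 7.02% of all tested genes. After scaling to a common median the counts were 26 and 0, and over all genes 797 and 620 in place of 485 and 966. Without any 1 of BAT siH19 d3 replicate 1, BAT siH19 d3 replicate 2, BAT siCtrl d3 replicate 2 or vWAT siH19 d3 replicate 1, 15 of the 33 were called. The level of *H19* in siH19 cells was 0.153 of that in siCtrl cells in BAT and 0.0615 in vWAT, where it lay below 1 FPKM, and the part of the knockdown in the difference was not tested. Brown (5 of 6), adipocyte (5 of 7) and macrophage markers (3 of 4) were called lower in the same interaction and precursor markers higher (3 of 5), and their part was not tested.

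In the vWAT values below the siCtrl libraries again come first. *Pck1* had the largest interaction (-1.56 ± 0.2, limma adjusted p 0.00186), and in vWAT cells it was at 1.69, 2.07 and 1.36 FPKM in siCtrl and 3.33, 2.31 and 2.67 in siH19 libraries. Those of *Pdk2* (-0.53 ± 0.12, limma adjusted p 0.0182) and *Mdh1* (-0.48 ± 0.063, limma adjusted p 0.00229) came next, and the call of *Pdk2* was lost in a single fit over all libraries (limma adjusted p 0.123). In vWAT cells *Pdk2* was at 38.4, 41.6 and 35.9 FPKM in siCtrl and 45.2, 41.1 and 42.2 in siH19 libraries, and *Mdh1* at 697, 711 and 667 against 767, 728 and 714. In BAT cells each of the 3 had fallen in every siH19 library, and in vWAT cells *Pck1* and *Mdh1* lay higher in every one. In the oxoglutarate dehydrogenase complex the vWAT values of *Ogdh* were 94.3, 88.0 and 87.6 against 93.2, 87.5 and 81.4 FPKM (interaction -0.46), those of *Dlst* 134, 129 and 127 against 134, 124 and 124 (-0.35) and those of *Dld* 171, 163 and 160.4 against 169, 162 and 156 (-0.33). All of them overlapped between siRNAs. *Cs* was at 334, 316 and 315 against 346, 323 and 310.2 FPKM (-0.40), *Idh3a* at 277, 267 and 253 against 296, 279.9 and 279 (-0.40) and *Idh3b* at 259, 262 and 235 against 266, 256 and 248 (-0.29). Of these, *Idh3a* was higher in every siH19 library. The call of *Idh3b* was lost without a filter on low values (limma adjusted p 0.0504) and with the replicate block (0.0518). A single fit over all libraries (0.155) and leaving out some single libraries (0.0527 to 0.0628) lost it too.

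For *Sucla2* the vWAT levels were 117, 113 and 111 FPKM in siCtrl and 117, 111 and 112 in siH19 libraries (interaction -0.42). All 4 genes of succinate dehydrogenase passed, with interactions of -0.28 (*Sdha*), -0.28 (*Sdhb*), -0.25 (*Sdhc*) and -0.28 (*Sdhd*). *Sdha* was at 678, 682 and 652 against 665, 607 and 572 FPKM in vWAT cells, *Sdhb* at 157, 155 and 145 against 163, 155 and 151, *Sdhc* at 435, 453 and 449.6 against 496, 489 and 445, and *Sdhd* at 219, 228 and 220.3 against 242, 226 and 224. The siRNA groups overlapped for each subunit. The calls of *Sdha*, *Sdhb* and *Sdhc* were lost without a filter on low values (limma adjusted p 0.106, 0.0581 and 0.0849), those of *Sdhb* and *Sdhc* with the replicate block (0.0583 and 0.0721), and those of *Sdha* and *Sdhc* in a single fit over all libraries (0.181 and 0.0702). Each of these calls was also lost when most of the libraries were left out singly (0.0515 to 0.112). Fumarase and mitochondrial malate dehydrogenase passed as well, with *Fh1* at 149, 158 and 150.2 against 159, 146 and 143 FPKM (-0.27) and *Mdh2* at 558, 544 and 546 against 600.4, 567 and 586 (-0.34). The call of *Fh1* was lost without a filter on low values (limma adjusted p 0.0555) and with the replicate block (0.0583). It was also lost when most of the libraries were left out singly (0.0526 to 0.0734).

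All 4 genes of the PDH complex passed the interaction. In vWAT cells *Pdha1* was at 214, 209 and 206 FPKM in siCtrl and 208, 207 and 202 in siH19 libraries (-0.31), *Pdhb* at 272, 272 and 247 against 265, 259 and 253 (-0.43), *Dlat* at 206, 219.8 and 205 against 202, 192 and 195 (-0.30) and *Pdhx* at 65.2, 64.9 and 57.8 against 66.0, 61.8 and 58.5 (-0.30). Of these 4 only *Dlat* was lower in every vWAT siH19 library. The calls of *Dlat* and *Pdhx* were lost without a filter on low values (limma adjusted p 0.0595 and 0.0623). That of *Dlat* was also lost in a single fit over all libraries (0.0904), and that of *Pdhx* with the replicate block (0.0526). Both were lost when most of the libraries were left out singly (0.0525 to 0.0768). Both carrier genes passed, with *Mpc1* at 366, 397 and 351 against 341, 329.7 and 341 FPKM (-0.35) and *Mpc2* at 602, 600.2 and 559.5 against 616, 592 and 596 (-0.27), and so did *Pcx* at 312, 289 and 287 against 306, 287 and 272 (-0.34). A single fit over all libraries lost the calls of *Mpc1* (limma adjusted p 0.168) and *Pcx* (0.127). That of *Mpc1* was also lost without a filter on low values (0.0739) and when most of the libraries were left out singly (0.0533 to 0.0823). The 10 genes that did not pass were *Idh2*, *Idh3g*, *Suclg1*, *Suclg2*, *Pdk1*, *Pdk3*, *Pdk4*, *Pdp1*, *Pdp2* and *Pck2*. Among them *Idh3g*, *Suclg1* and *Pck2* had limma adjusted p-values of 0.0706, 0.0637 and 0.0517.

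Before induction, at d0, fewer of these genes passed. In BAT cells 3 of 32 tested genes fell and 0 rose, against 1.32% and 0.617% of all tested genes. The median log2 fold change was -0.15 (-0.03 over all genes), with 23 of 32 below 0, and in 14 all siH19 libraries were lower (16.1% of all genes). The genes were *Idh2*, at 72.0, 61.8 and 70.2 FPKM in siCtrl and 48.2, 53.3 and 50.2 in siH19 libraries (-0.42 ± 0.071, limma adjusted p 0.0382), *Idh3g*, a regulatory subunit, at 70.5, 72.0 and 83.3 against 53.3, 54.0 and 54.4 (-0.47 ± 0.068, limma adjusted p 0.0271), and *Pcx*, at 24.4, 22.9 and 26.8 against 11, 15.3 and 14.4 (-0.83 ± 0.13, limma adjusted p 0.0307). The siRNA groups did not overlap for any of the 3. The calls rest on all libraries, since 1 was made without BAT siH19 d0 replicate 1 and 0 without any of the other 5, and a fit with the replicate number as a block gave 0.

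In vWAT cells at d0, 3 of 32 tested genes fell and 0 rose, against 1.2% and 0.329% of all tested genes. The median was -0.21 (-0.03 over all genes), 29 of 32 were below 0, and in 18 all siH19 libraries were lower (16.2% of all genes). *Pcx* fell from 41.9, 40.5 and 42.4 to 26.7, 20.7 and 20.2 FPKM (-0.87 ± 0.11, limma adjusted p 0.0161). *Mpc2* fell from 157, 169.6 and 179 to 114, 116 and 122 FPKM (-0.52 ± 0.059, limma adjusted p 0.0143), and *Pdhx* from 18.3, 18.0 and 16.4 to 13.2, 12.2 and 13.7 (-0.40 ± 0.072, limma adjusted p 0.0494). All 3 lay lower in every siH19 library. Of these calls 0 were made without vWAT siH19 d0 replicate 2, vWAT siCtrl d0 replicate 2 or vWAT siCtrl d0 replicate 3, 1 without vWAT siCtrl d0 replicate 1, and 0 with the replicate number as a block. *Pcx* was thus the gene that passed at d0 in both depots. Summed adipocyte markers were lower in siH19 cells at d0 as well, at 1583 to 2115 against 3135 to 3408 FPKM in BAT cells and 2412 to 2721 against 4087 to 4095 in vWAT cells (5 of 7 genes fell in each), and their part in the fall of these genes was not tested.

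Within BAT cells the interaction of day and siRNA asked whether the effect of siH19 differed between d3 and d0. For 8 of the 33 genes the log2 fold change was lower at d3 than at d0 and for 0 it was higher, against 1.27% and 7.79% of all tested genes. Scaled to a common median, the counts were 13 and 0, and over all genes 355 and 486 in place of 172 and 1058. Without BAT siCtrl d3 replicate 2 the count was 5. The call of *Pdha1* was lost when most of the libraries were left out singly (limma adjusted p 0.0546 to 0.0777), and so was that of *Pck1* (0.0501 to 0.0623). After *Pck1*, the largest of these 8 differences was that of *Ogdh* (-0.51 ± 0.052, limma adjusted p 0.000658), whose d0 levels were 36.5, 37.0 and 36.9 FPKM in siCtrl and 36.6, 37.8 and 36.5 in siH19 libraries. At d0 its groups overlapped and at d3 they did not. *Idh3a* (-0.33) was at 52.4, 50.5 and 53.6 against 54.4, 51.7 and 53.9 FPKM at d0, *Dlst* (-0.25) at 75.3, 70.8 and 73.3 against 67.5, 66.6 and 65.9, and *Sucla2* (-0.36) at 49.7, 48.7 and 43.7 against 46.1, 44.3 and 44.4. *Pdha1* (-0.21) was at 95, 98.0 and 97.1 against 87.5, 90.8 and 87.7 FPKM at d0, *Dlat* (-0.35) at 43.2, 45.1 and 43.4 against 43.7, 40.8 and 42.9, and *Pck2* (-0.36) at 22.0, 22.0 and 21.6 against 24.5, 21.5 and 23.0. *Pck1* (-0.62 ± 0.14, limma adjusted p 0.0252) was at 0.485, 0.478 and 0.536 against 0.0983, 0.0765 and 0.0801 FPKM at d0, near the pseudocount, and the sign of its interaction turned with a smaller pseudocount. *Pcx*, with a log2 difference of 0.45 in the other direction, did not pass (limma adjusted p 0.0759). In the same interaction 5 of 7 adipocyte and 3 of 5 precursor markers were higher and 4 of 6 brown markers lower, and their part was not tested. The effect of siH19 on *H19* itself was weaker at d3 than at d0, by 1.99 on the log2 scale (limma adjusted p 0.00282), and its part in these differences was not tested. This comparison shares the d3 BAT libraries with the interaction of depot and siRNA.

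**Figure D4:**
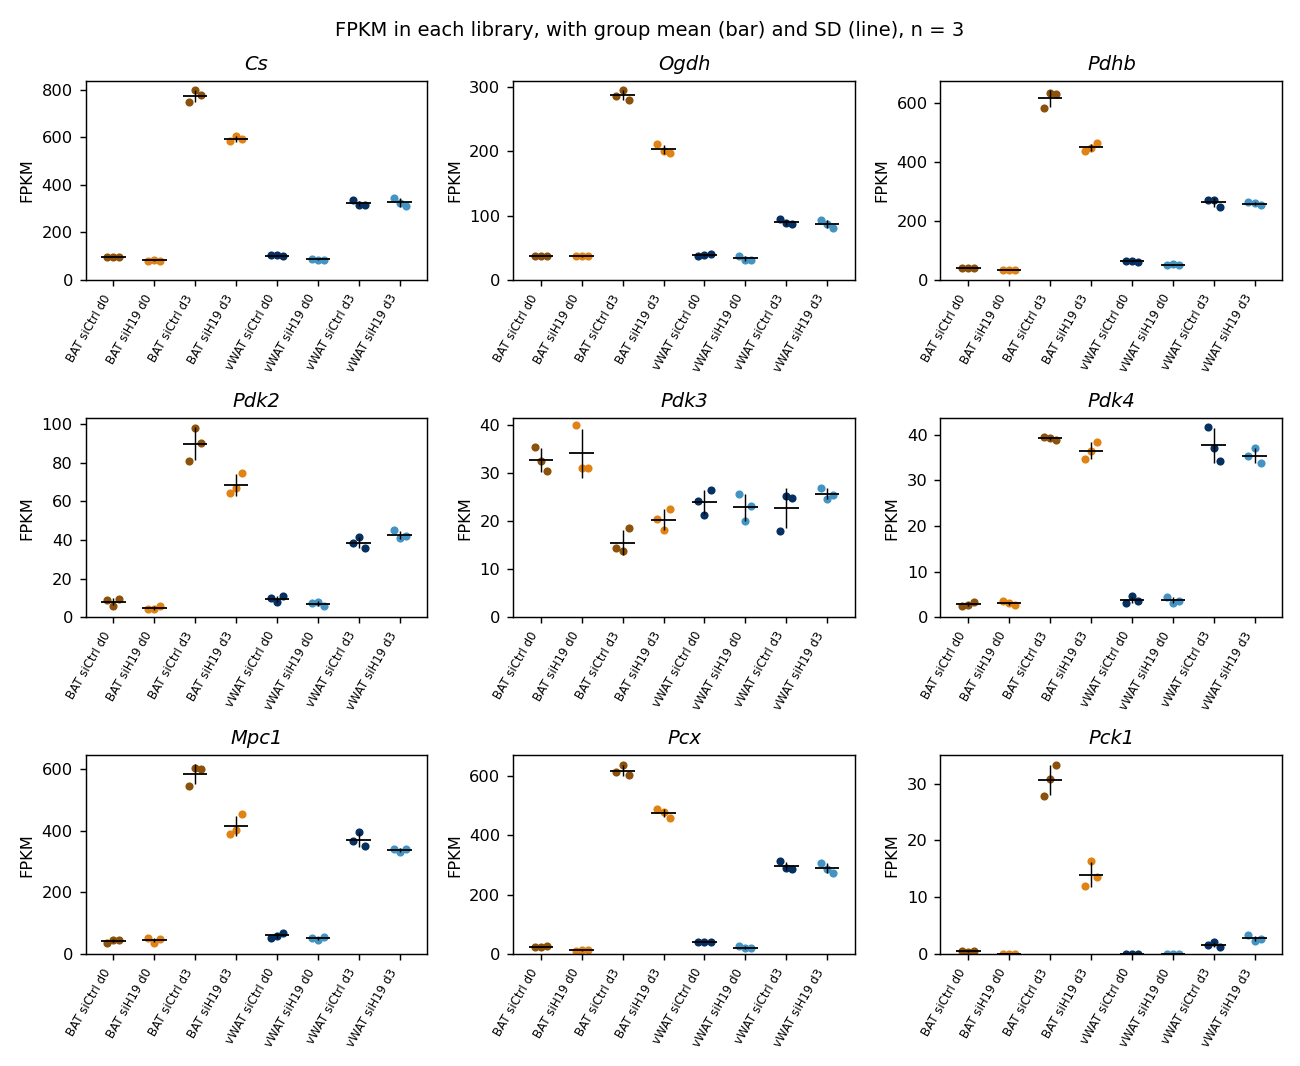
FPKM of 9 genes in each library of the 8 groups, with the mean as a bar and the SD as a line. In BAT cells at d3 the siH19 points of *Cs*, *Ogdh*, *Pdhb*, *Pdk2*, *Mpc1*, *Pcx* and *Pck1* lie below all siCtrl points.

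Related genes outside the 33 were followed as a list of 28, which holds cytosolic isocitrate and malic enzymes, glutamate and aspartate enzymes, citrate and malate carriers and ATP citrate lyase. In BAT cells at d3, 7 of 27 tested fell with siH19 and 0 rose. Among them were the aspartate aminotransferase *Got1* (-0.39 on the log2 scale), the dicarboxylate carrier *Slc25a10* (-0.43), glutamate dehydrogenase *Glud1* (-0.45), the citrate carrier *Slc25a1* (-0.55), the malic enzyme *Me1* (-0.74) and ATP citrate lyase *Acly* (-0.82). In vWAT cells at d3, 0 of 26 passed. At d0, 1 of 27 fell in BAT cells and 2 of 28 in vWAT cells. From d0 to d3 in siCtrl cells 24 of 27 rose and 2 fell in BAT, and 19 of 27 rose and 2 fell in vWAT. Their siH19 effect at d3 was lower in BAT than in vWAT cells for 8 of 27 and higher for 0.

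Some of the 33 genes overlap an expressed gene on the opposite strand, among them *Idh3b* (with *Nop56*, mean 119 FPKM), *Mpc1* (*4930506C21Rik*, 59.0), *Pcx* (*Lrfn4*, 8.01) and *Mdh1* (*Wdpcp*, 3.97). Whether reads were assigned by strand is not given in the sources used here, and without strand the reads of such partners cannot be told apart.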

How the data were processed

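RNA-seq of 24 libraries was available as 1 table of 49452 genes. Per the labels, the authors prepared directional poly-A libraries, aligned the reads with TopHat2 2.0.10 to GRCm38.p5 and computed expression with Cufflinks 2.2.1. The paper's methods give another Cufflinks version and do not call the kit of these libraries directional, and the conflict could not be settled. The authors deposited values that carry no unit name and were taken as FPKM, since the plots of these data name it. FPKM are relative to library size, and the total number of fragments is unknown, so only relative depth (0.826 to 1.168, from the steps between values under 0.3) is given, without counting intervals. Symbols were matched by ID for 49109 genes (343 without), and 0 columns belonged to no sample.

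Values were fitted as log2(FPKM + 1) with limma 3.58.1 in R 4.3.3 (intensity trend), on the libraries of each comparison, over genes that reached an FPKM of 1 in 3 or more libraries. Calls needed a Benjamini-Hochberg adjusted p under 0.05 over all tested genes and a change of at least 1.3-fold (no minimum fold for interactions). The fit was tested on simulated data. Same-numbered libraries did not deviate together (r -0.114 to 0.067), so numbers were not taken to pair them. Replicates correlated at r 0.988 to 0.991 and all were kept. Genes, lists, tests and alternatives were chosen with earlier results of these data known. Values per library are given for genes called in an siH19 comparison or siRNA interaction and for the 3 with the largest change in each comparison of day or depot, others by range. Alternatives were a pseudocount of 0.1, no filter, a common median, 1 fit over all libraries, the replicate block, no minimum fold, and leaving out each library. Some items of the lists are not reported here. Sequences and figures used Python 3.11.15, pandas 2.3.3 and matplotlib 3.10.9.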

Additional observations from a re-analysis of the deposited data

Results flagged for a closer look

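Results are listed here because an effect differed between depots or days by the test of the difference itself, the limma interaction term at an adjusted p under 0.05. The effect of siH19 at d3 was lower in BAT than in vWAT cells for 23 genes, with differences of log2 fold change of *Cs* -0.40, *Idh3a* -0.40, *Idh3b* -0.29, *Ogdh* -0.46, *Dlst* -0.35, *Dld* -0.33, *Sucla2* -0.42, *Sdha* -0.28, *Sdhb* -0.28, *Sdhc* -0.25, *Sdhd* -0.28, *Fh1* -0.27, *Mdh1* -0.48, *Mdh2* -0.34, *Pdha1* -0.31, *Pdhb* -0.43, *Dlat* -0.30, *Pdhx* -0.30, *Pdk2* -0.53, *Mpc1* -0.35, *Mpc2* -0.27, *Pcx* -0.34 and *Pck1* -1.56.

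The change from d0 to d3 in siCtrl cells differed between BAT and vWAT for 28 genes, with differences (BAT minus vWAT) of *Cs* 1.36, *Idh3a* 1.71, *Idh3b* 1.3, *Idh3g* 1.07, *Ogdh* 1.74, *Dlst* 1.34, *Dld* 1.48, *Sucla2* 1.98, *Suclg1* 1.26, *Suclg2* 0.64, *Sdha* 1.03, *Sdhb* 1.04, *Sdhc* 0.93, *Sdhd* 1.28, *Fh1* 1.26, *Mdh1* 1.32, *Mdh2* 1.29, *Pdha1* 0.83, *Pdhb* 1.81, *Dlat* 1.65, *Pdhx* 1.49, *Pdk2* 1.44, *Pdk3* -0.95, *Pdp2* 1.00, *Mpc1* 1.12, *Mpc2* 1.5, *Pcx* 1.79 and *Pck1* 3.02.

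The effect of siH19 in BAT cells was lower at d3 than at d0 for 8 genes, with differences of *Idh3a* -0.33, *Ogdh* -0.51, *Dlst* -0.25, *Sucla2* -0.36, *Pdha1* -0.21, *Dlat* -0.35, *Pck1* -0.62 and *Pck2* -0.36. These comparisons share the BAT siCtrl libraries at d3.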

How the results depend on the processing

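Of 63 alternative counts that leave out no library, 52 stayed within 1.5 times the count reported. The others were, for siH19 in BAT cells at d3, 26 genes with no minimum fold. For BAT cells at d0, no filter on low values gave 1, the replicate block 0 and no minimum fold 7, in place of 3. For vWAT cells at d0, no filter gave 1, the replicate block 0, 1 fit over all 24 libraries 5 and no minimum fold 7, in place of 3. Between depots at d0 no minimum fold gave 16 in place of 8, the depot by siRNA interaction without a filter gave 15 in place of 23, and the BAT day by siRNA interaction on a common median gave 13 in place of 8. Without a filter more genes are tested, and the cause of the other shifts was not tested.

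The sign of 1 named result turned, that of *Pck1* in the BAT day by siRNA interaction, at 0.56 with a pseudocount of 0.1 (limma adjusted p 0.0879). Of 884 values of named genes under alternatives 720 kept direction and call, and 163 kept direction only. Leaving out 1 library gave 6 to 13 calls for siH19 in BAT at d3 (12 reported), 0 in vWAT at d3, 0 to 1 in BAT at d0 (3), 0 to 3 in vWAT at d0 (3), 30 to 31 and 29 to 30 for day in BAT (31) and vWAT (30), 4 to 9 and 27 to 30 between depots at d0 (8) and d3 (28), 15 to 23 for depot by siRNA (23), 28 to 30 for depot by day (28) and 5 to 9 for BAT day by siRNA (8).

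With the replicate number as a block the counts were 12 and 0 for siH19 at d3 in BAT and vWAT, 31 and 30 for day, 9 and 28 between depots at d0 and d3, 18 for depot by siRNA, 28 for depot by day and 8 for BAT day by siRNA. The number of fragments per library is unknown, which limits statements on low genes such as *Pck1* at d0.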
